A study of Mus musculus with 8 samples.

Results

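The pregnancy-specific glycoprotein (*Psg*) genes described here are *Psg17*, *Psg18*, *Psg19*, *Psg21*, *Psg22*, *Psg23*, *Psg25*, *Psg27*, *Psg28* and *Psg29*, which are 10 of the 26263 genes in the count tables and 10 of the 14 genes there with a *Psg* symbol. They were picked because families of placental genes were read at higher levels in day 12 cells than in embryonic stem cells (ESCs), so the difference between these stages is given as a description, with no test. RNA-seq libraries were made from ESCs and from neural precursor cells (NPCs) obtained at day 12 of *in vitro* corticogenesis, a protocol that directs ESCs towards precursors of the cortex. Both stages were analysed in reciprocal crosses, B/J (C57BL/6 x JF1, line BJE2) and J/B (JF1 x C57BL/6, line JBE6), with the strain of the mother named first and 2 libraries in each of the 4 groups. Each cross was represented by 1 cell line, so cross and line cannot be told apart. All ESCs were grown on gelatin in a serum-free medium with LIF, BMP4 and a GSK3-β inhibitor. The labels do not say whether the replicates were separate cultures, and p-values therefore measure only the spread between these libraries.

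PSGs are secreted, heavily glycosylated proteins of the immunoglobulin superfamily and belong to the carcinoembryonic antigen family together with the CEACAM cell adhesion molecules. In the mouse they are made by trophoblast, mainly by giant cells and by the spongiotrophoblast of the placenta, and are released into the maternal circulation. They are known for binding the tetraspanin CD9, heparan sulphate proteoglycans and integrins on other cells, for activating latent TGF-β and for promoting the formation of vessels.

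All 10 genes lie on chromosome 7, have 5 exons in the canonical transcript of GENCODE and hold between 1404 and 1542 coding bases. *Psg29*, at chr7:16937402-16949685 on the plus strand of GRCm39 (mm39), stood 1129.7 kb from the nearest of the others. The other 9 genes filled a cluster of 476 kb, in the order *Psg18*, *Psg28*, *Psg25*, *Psg27*, *Psg23*, *Psg21*, *Psg22*, *Psg19* and *Psg17*. Of the 10 genes, 8 were on the minus strand and 2, *Psg22* and *Psg29*, on the plus strand. *Psg27*, *Psg23* and *Psg21* were next to each other among the *Psg* genes within 100.2 kb.

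The 250 bases before the start of the canonical GENCODE transcript of each gene were read from GRCm39. They are shown because the 10 genes were read in the same libraries, so that what their windows share can be seen. The longest run held by at least 9 of the 10 members was 12 bases, TGCTTATCAGCC, which was in 9 of them and not in *Psg27*. *Psg27* held 7 bases of it, CTTATCA, and at a separate place another 7, TATCAGC. All 10 members held both of these shorter runs. Among the 21738 protein-coding genes whose windows were searched on both strands, the run of 12 bases was in 11 (0.0506%), which were the 9 members, *Psg26* and the muscle gene *Mybpc3*, and the runs of 7 bases were in 1.98% and 1.67%. *Psg26* was not used to find the run, but its window was 90.3% identical to that of *Psg18*. The windows of *Psg16* and *Psg20* did not hold the run, although that of *Psg20* was 83.5% identical to that of *Psg18*. Pairs of member windows were 56.9% (*Psg25* and *Psg28*) to 98.4% (*Psg21* and *Psg23*) identical over their length. Sharing of the run therefore cannot be told apart from the likeness of the whole windows. Read on the other strand the run is GGCTGATAAGCA, which includes the letters GATAAG, known as the sequence read by GATA factors. The run was found from the members themselves, so its frequency among them is a description. The 5 sequences below are those of the most abundant members and of the 3 neighbouring genes that differed most between the crosses, written 5′ to 3′ on the strand of each gene with the run, or in *Psg27* the first of the shorter runs, in capitals. They are *Psg29* (chr7:16937152-16937401, plus strand), *Psg22* (chr7:18451765-18452014, plus strand), *Psg21* (chr7:18390648-18390897, minus strand), *Psg23* (chr7:18350427-18350676, minus strand) and *Psg27* (chr7:18301231-18301480, minus strand).
Psg29: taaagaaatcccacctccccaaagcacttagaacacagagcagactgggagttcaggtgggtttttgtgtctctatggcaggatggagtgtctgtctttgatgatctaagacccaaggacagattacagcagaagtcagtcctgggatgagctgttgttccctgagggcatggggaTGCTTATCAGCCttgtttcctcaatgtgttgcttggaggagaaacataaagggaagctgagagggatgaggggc
Psg22: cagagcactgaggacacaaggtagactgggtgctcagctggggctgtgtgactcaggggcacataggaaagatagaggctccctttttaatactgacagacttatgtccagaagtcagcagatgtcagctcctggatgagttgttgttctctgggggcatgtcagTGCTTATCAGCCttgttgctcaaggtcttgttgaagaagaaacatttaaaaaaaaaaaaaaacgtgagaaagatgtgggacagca
Psg21: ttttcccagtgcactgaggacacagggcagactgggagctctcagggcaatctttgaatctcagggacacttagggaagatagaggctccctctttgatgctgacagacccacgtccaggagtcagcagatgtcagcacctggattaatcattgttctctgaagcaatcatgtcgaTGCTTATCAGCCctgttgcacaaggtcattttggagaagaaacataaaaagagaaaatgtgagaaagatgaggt
Psg23: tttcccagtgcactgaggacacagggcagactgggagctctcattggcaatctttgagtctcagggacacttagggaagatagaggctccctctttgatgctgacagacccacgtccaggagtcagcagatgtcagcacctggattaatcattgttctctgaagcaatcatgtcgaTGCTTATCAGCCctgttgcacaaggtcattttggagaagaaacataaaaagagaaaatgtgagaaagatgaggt
Psg27: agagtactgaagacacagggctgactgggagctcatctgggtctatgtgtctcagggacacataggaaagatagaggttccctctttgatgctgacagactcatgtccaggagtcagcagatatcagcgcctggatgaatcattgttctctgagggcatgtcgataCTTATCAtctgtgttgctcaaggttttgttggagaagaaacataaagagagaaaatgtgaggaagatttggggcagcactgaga
The run began 74 bases before the start in *Psg29*, *Psg21* and *Psg23*, 85 in *Psg22* and between 36 and 92 bases before it over the 9 genes that held it. The windows of *Psg21* and *Psg23* differed in 4 of 251 aligned columns. A further 5 motifs were searched on both strands and were in 0 of the 10 windows. The letters of a TATA box, TATAAA, were in 11.9% of the 21738 windows searched. The KLF motif CCACCC was held by 28.6% of them. For the GATA motif written AGATAA the share over all genes was 9.61%. A TEAD motif, GGAATG, was present in 12.1% of these windows. The TFAP2 motif GCCNNNGGC was present in 13.2%. Missing letters in a window say nothing of whether a factor binds there.

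The coding sequences of the family are close enough that reads of 1 member can match another. Over the 45 pairs of members, between 63.3% and 97.5% of the aligned columns were identical. The lowest values all involved *Psg29*, which shared 63.3% to 68.5% with the other 9, whereas the 36 pairs without it shared at least 78.6%. The closest pair was *Psg21* and *Psg23*, which differed in 36 of 1413 columns and had 370 identical bases in a row. *Psg18* and *Psg28* shared 93.8%, and *Psg27* shared 89.7% with *Psg21* and 89.6% with *Psg23*.

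**Figure D1:**
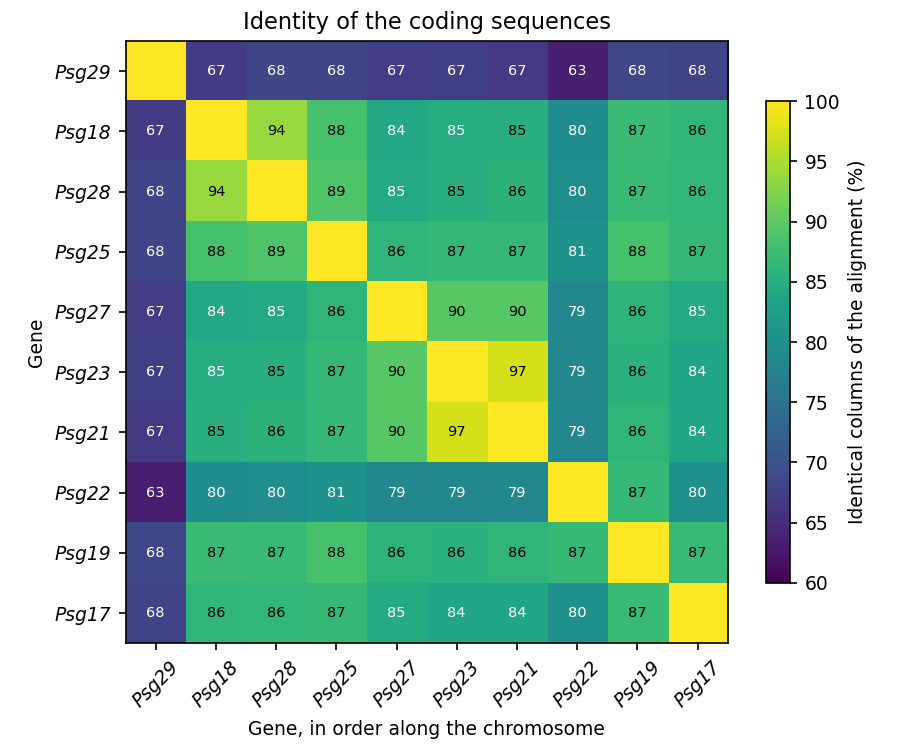
Percentage of identical columns in pairwise alignments of the coding sequences of the 10 genes, in their order along the chromosome, with the value rounded in each cell. *Psg29* shared 63.3% to 68.5% with every other member, and the brightest pair was *Psg21* with *Psg23*.

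Stretches of 100 bases from the exons occurred once in the genome for 70.7% of the positions of *Psg23* and 81.7% of those of *Psg21*, against 91.5% to 100% for the other 8 members. With stretches of 50 bases these shares were 48.8% for *Psg23*, 51.8% for *Psg21* and 97.6% for *Psg29*. Alignments under a mapping quality of 20 had been removed by the authors, and reads that match several members equally well cannot be assigned to 1 of them. The split of counts between *Psg21* and *Psg23* is therefore uncertain, while *Psg29* is little affected.

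In ESCs the family was hardly read at all, and in NPCs every member was read in every library. The summed counts of the 10 genes were 1, 1, 2 and 3 in the ESC libraries (B/J 1, B/J 2, J/B 1 and J/B 2, the order used throughout) and 7812, 5233, 7845 and 5988 in the NPC libraries. Scaled to the total gene counts of each library as CPM, this was 0.0356, 0.0365, 0.0887 and 0.113 in ESCs and 254, 197, 239.9 and 234 CPM in NPCs. The ranges of the stages lie far apart, and the highest NPC library was less than 1.5 times the lowest. Of the 7 ESC counts, *Psg23* held 6 (1, 1, 2 and 2) and *Psg17* held 1, in J/B replicate 2. The other 8 members had 0 counts in all ESC libraries. A library held between 22537138 and 32706015 gene counts, so 1 count was worth 0.0306 to 0.0444 CPM, and intervals and limits given here cover counting error only.

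The summed level was 231 ± 24.2 CPM in NPCs (SD, n = 4) and 0.0685 ± 0.0388 CPM in ESCs (n = 4), a ratio of 3469 (95% exact interval 1684 to 8630) on library totals and 2493 (1210 to 6202) after TMM normalization. Against a limit of 3 counts over the ESC libraries, the 8 members without ESC counts were at least 31.6-fold (*Psg28*) to at least 5879-fold (*Psg29*) higher in NPCs. These bounds are on library totals and became at least 22.7-fold and at least 4225-fold with TMM factors. The ratio of *Psg17*, with 1 ESC count, was 334 (59.6 to 13240), and that of *Psg23* was 55.7 (25.4 to 153). *Psg23* was the member with the lowest share of exon stretches found once in the genome, and the part of this in its ESC counts was not tested. In the fit over all genes the median log2 change of the 10 members was 8.90, beside 0.17 for the 16399 genes tested, of which 37.5% were called higher and 31.9% lower in NPCs. All 10 members passed the filter on low counts through their NPC libraries and were chosen on this contrast, so nothing is read from these shares. In bulk RNA, more cells that express a gene and more RNA per cell cannot be told apart.

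**Figure D2:**
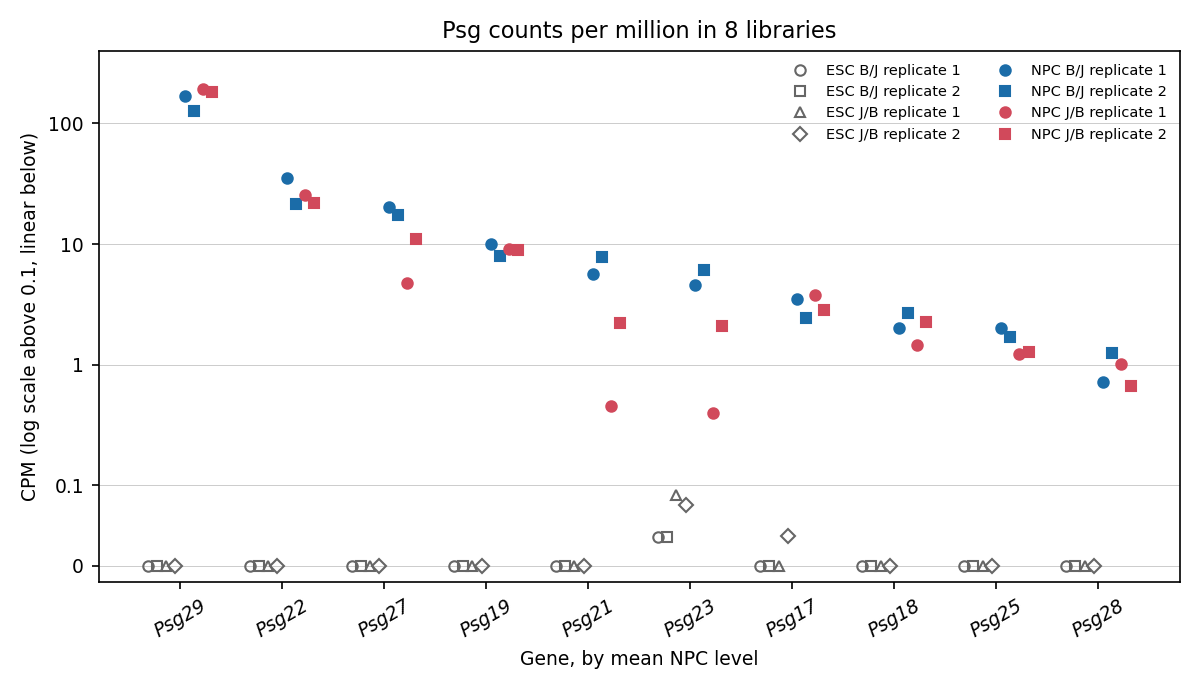
CPM of each member in the 8 libraries, on an axis that is logarithmic above 0.1 and linear below, with ESCs as open grey symbols, NPCs of B/J in blue and of J/B in red. ESC values are 0 except for *Psg23* and 1 library of *Psg17*, and in NPCs the red symbols of *Psg27*, *Psg21* and *Psg23* lie below the blue ones.

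*Psg29* accounted for most of the family in NPCs. It was read at 169, 128, 192 and 180.4 CPM (5220, 3398, 6281 and 4622 counts), with J/B libraries above both B/J libraries. *Psg22*, known as the main *Psg* gene of giant cells early in pregnancy, followed at 35.4, 21.6, 25.6 and 21.9 CPM, and its crosses overlapped. *Psg27* was read at 20.3, 17.5, 4.74 and 11.1 CPM, higher in both B/J libraries. *Psg19*, whose protein binds CD9, was the steadiest member, with 9.93, 7.98, 9.17 and 8.94 CPM and a coefficient of variation of 8.95%.

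*Psg21* and *Psg23*, which are abundant in the placenta late in pregnancy, varied most. *Psg21* was read at 5.62, 7.86, 0.459 and 2.22 CPM (173, 209, 15 and 57 counts), a 17.1-fold range. *Psg23*, whose protein binds heparan sulphate and induces TGF-β1 and VEGF in other cells, was read at 4.61, 6.06, 0.397 and 2.11 CPM (142, 161, 13 and 54 counts), a 15.2-fold range. For both genes the B/J libraries lay above the J/B libraries, and J/B replicate 1 was the lowest. The ratio of *Psg21* to *Psg23* counts stayed between 1.06 and 1.30 over the 4 libraries.

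The remaining 4 members were low. *Psg17*, the first mouse member shown to bind CD9, was read at 3.54, 2.45, 3.76 and 2.85 CPM. *Psg18*, whose protein induces interleukin-10 in macrophages, was read at 2.01, 2.67, 1.47 and 2.26 CPM. Both overlapped between the crosses. *Psg25* was read at 2.01, 1.69, 1.22 and 1.29 CPM, with both J/B values below the B/J values. *Psg28* was the lowest, at 0.714, 1.24, 1.01 and 0.664 CPM (17 to 33 counts), and its crosses overlapped.

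Levels of different genes were compared per kilobase of the canonical transcript. On this scale the mean NPC level was 30.7 CPM per kb for *Psg29*, 14.0 for *Psg22*, 6.91 for *Psg27*, 4.28 for *Psg19*, 1.95 for *Psg21*, 1.51 for *Psg23*, 1.5 for *Psg17*, 1.27 for *Psg18*, 0.50 for *Psg25* and 0.465 for *Psg28*. The order was the same per kilobase of coding sequence and per kilobase of stretches of 100 bases found once in the genome. *Psg29* has the longest annotated transcript of the family (5445 bases against 1659 to 3109 for the others), and per kilobase of coding sequence it was at 119 CPM per kb and *Psg22* at 16.9. Neighbours in this order whose 4 libraries did not overlap were *Psg29* and *Psg22*, *Psg22* and *Psg27*, and *Psg18* and *Psg25*. The other 6 neighbouring pairs overlapped, and of these *Psg21* and *Psg23* kept their order in all 4 libraries. *Psg27* was above *Psg19*, and *Psg19* above *Psg21*, in 3 of 4 libraries, and the other 3 pairs were in this order in 2 of 4.

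As shares of the family's counts, *Psg29* made up 66.8% (95% Wilson interval 65.8 to 67.9), 64.9% (63.6 to 66.2), 80.1% (79.2 to 80.9) and 77.2% (76.1 to 78.2) of the 4 NPC libraries. Its share was higher in both J/B libraries than in both B/J libraries. *Psg22* made up 9.35% to 14.0% and *Psg19* 3.82% to 4.05%. *Psg21*, *Psg23* and *Psg27*, a group noticed after the values were seen, together made up 12.0%, 15.9%, 2.33% and 6.61%. In CPM these 3 genes summed to 30.5, 31.4, 5.60 and 15.5, and the other 7 members to 223, 166, 234 and 218. The sum of the 3 was lower in both J/B libraries, and that of the other 7 overlapped between the crosses.

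**Figure D3:**
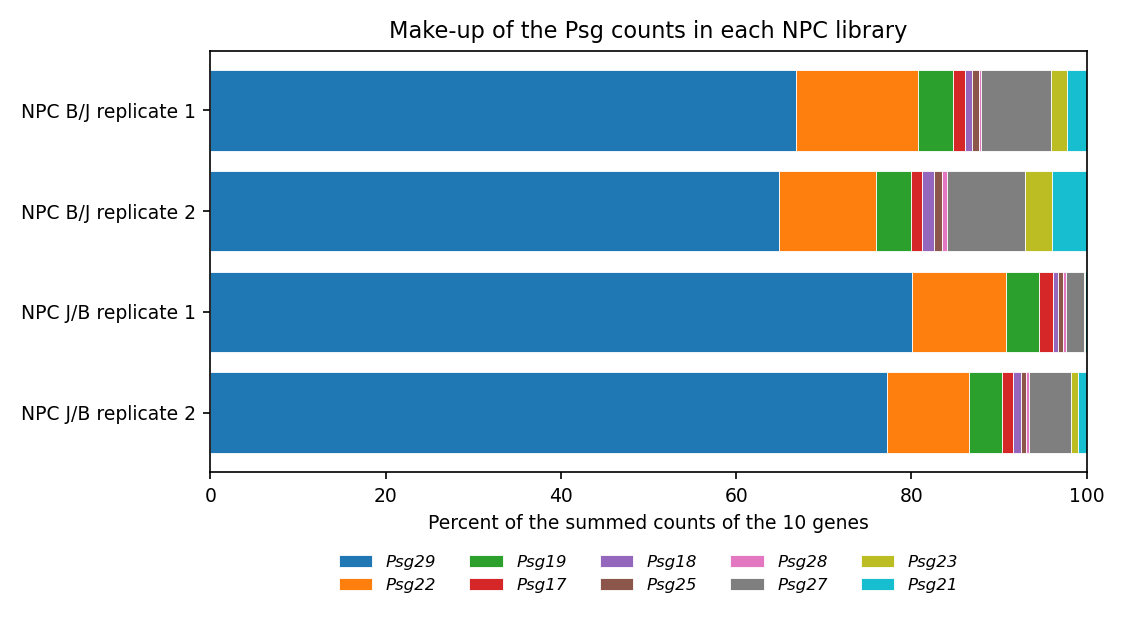
Share of each member in the summed counts of the 10 genes, in percent, for the 4 NPC libraries. *Psg29* (blue) fills 64.9% to 80.1% of a bar, and *Psg27*, *Psg23* and *Psg21* at the right end fill 12.0% and 15.9% of the B/J bars but 2.33% and 6.61% of the J/B bars.

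The crosses were compared within NPCs, a contrast that was not used to pick the members. With edgeR's quasi-likelihood test none of the 10 members was called different (adjusted p between 0.755 and 0.996), and over all genes tested 0.00610% were called, which was 1 gene, *Firre*, named after its value was seen (log2 -3.32, adjusted p = 0.0431). DESeq2 and limma-voom also called 0 of the members, with 70 and 1 genes called in all. At an unadjusted p below 0.05 edgeR had 2 members, *Psg21* and *Psg23*, beside 6.40% of all genes. The split of counts between these 2 genes is uncertain, so they may not be separate observations. The log2 difference of J/B from B/J was -2.39 for *Psg21* (standard error 0.87, 95% interval -4.54 to -0.24, adjusted p = 0.763), -2.15 for *Psg23* (0.77, -3.94 to -0.36, adjusted p = 0.755) and -1.31 for *Psg27* (0.54, -2.63 to 0.01, adjusted p = 0.770). These 3 had the lowest values of the family, and they lie next to each other among the *Psg* genes. As a ratio of mean CPM, J/B was at 0.199 of B/J for *Psg21*, 0.235 for *Psg23* and 0.420 for *Psg27*.

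For the other 7 members the estimates were nearer to 0. *Psg29* was at 0.27 (95% interval -0.29 to 0.83, adjusted p = 0.853), with J/B at 1.25 times B/J, and it had the narrowest interval. *Psg22*, at -0.32 (-1.27 to 0.62), and *Psg19*, at -0.04 (-1.13 to 1.06), were measured less precisely. For *Psg25*, *Psg18*, *Psg28* and *Psg17* the estimates were -0.61, -0.38, -0.26 and 0.09, and each of these 4 intervals held a 2-fold difference in either direction. In sign, 8 members were below 0 and 2 above, with a median of -0.35 beside 0.01 for all genes. The signs of *Psg17*, *Psg19*, *Psg22* and *Psg28* changed when a library was left out. Values of B/J and J/B did not overlap for 5 members, 4 of them lower in J/B (*Psg21*, *Psg23*, *Psg25* and *Psg27*) and 1 higher (*Psg29*). Over all genes tested 39.7% did not overlap, 18.6% lower and 21.1% higher in J/B, and with 2 against 2 libraries no exact permutation test can go below p = 0.333. The summed family was at 225 ± 40.1 CPM in B/J and 237 ± 4.35 CPM in J/B (SD, n = 2 each), a difference smaller than the spread within B/J.

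**Figure D4:**
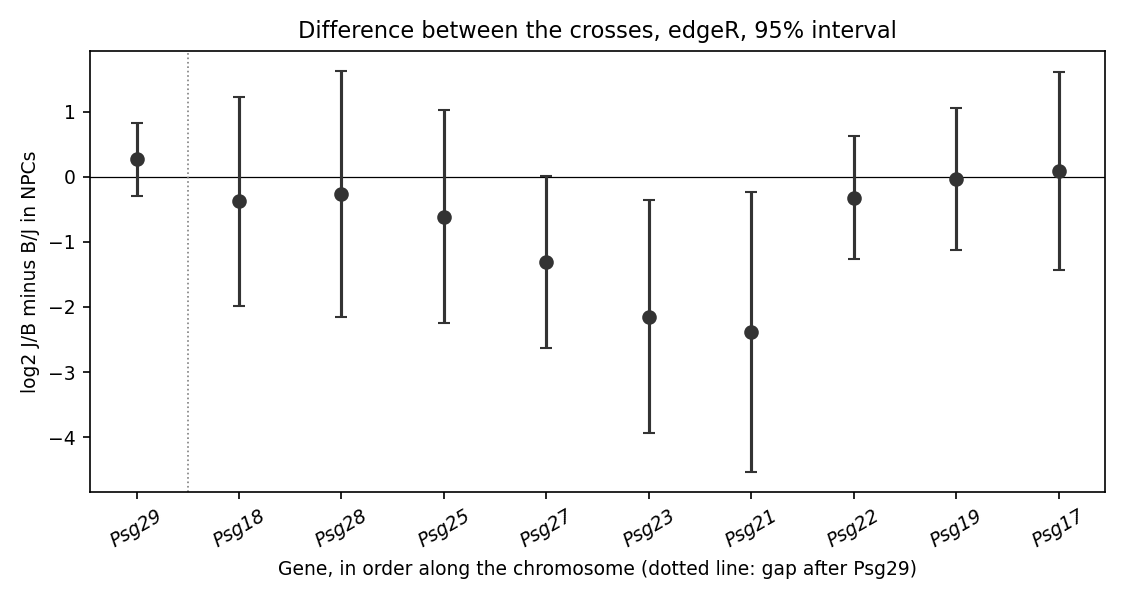
Fitted log2 difference of J/B from B/J in NPCs for the 10 members in their order along the chromosome, with 95% intervals from edgeR over 2 libraries a cross. The estimates run from 0.27 for *Psg29* to -2.39 for *Psg21*, with *Psg27*, *Psg23* and *Psg21* side by side at the low end, and no member was called after adjustment.

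Lists of cell type markers also had different summed levels in the 2 crosses, although 1 gene over all tested was called by edgeR. Summed trophoblast giant cell markers were at 514, 284, 248 and 198 CPM in the NPC libraries and spongiotrophoblast and glycogen cell markers at 1236, 658, 668 and 559.5 CPM, highest in B/J replicate 1 in both lists. Neural precursor markers, at 190.2, 533, 823 and 769 CPM, and endoderm and yolk sac markers, at 24.2, 18.3, 83.2 and 73.9 CPM, were lower in both B/J libraries. The mean of J/B relative to B/J was 0.559 for giant cell, 0.648 for spongiotrophoblast, 0.609 for trophoblast stem cell and 0.639 for labyrinth markers. *Rhox6* (249, 118, 59.8 and 56.8 CPM) held a large part of the giant cell sum. *Prl3d1* (0.454, 0.790, 8.26 and 3.47 CPM) and *Prl2c2* (7.47, 5.87, 16.2 and 10.9 CPM, a gene with close copies, so its counts are uncertain) of that list, and *Prl7b1* (44.0, 44.3, 73.9 and 59.6 CPM) of the spongiotrophoblast list, were instead higher in both J/B libraries. So was *Sox21* (16.2, 50.8, 102 and 62.3 CPM) of the stem cell list, of whose sum *Tfap2c* (386, 224, 142 and 123 CPM) held a large part. Most of the labyrinth sum came from *Slc16a1* (402, 326, 266 and 214 CPM) and *Slc16a3* (197, 204, 144 and 135 CPM). Both were already read in ESCs, at means of 233 and 74.1 CPM. The mean of J/B relative to B/J was 2.20 for neural precursor markers, 3.69 for endoderm and yolk sac markers and 1.05 for the summed *Psg* genes. The crosses overlapped for the spongiotrophoblast list and the *Psg* sum and did not overlap for the other 5. Among single genes tested, 39.7% did not overlap. Of the further marker lists, pluripotency (0.533) and mesenchyme (0.839) overlapped, and the few erythroid counts (0.347) did not. The lists are sums that were not tested. Their part in the differences between members was not tested.

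Libraries numbered 2 were also compared with those numbered 1 in NPCs. edgeR called 0 of the 10 members, beside 0.335% of all genes, and 0 members reached an unadjusted p below 0.05, beside 20.5% of all genes. DESeq2 and limma-voom called 0 members as well, with 790 and 857 genes called in all against 55 with edgeR, and limma-voom had 1 at an unadjusted p below 0.05. The highest values were 1.22 for both *Psg21* (95% interval -0.28 to 2.73) and *Psg23* (-0.20 to 2.65), and the lowest was -0.50 for *Psg22* (-1.15 to 0.15). *Psg21* and *Psg23* were higher in replicate 2 in both crosses, and *Psg29* and *Psg22* were higher in replicate 1 in both. In sign, 5 members were above 0 and 5 below.

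The other genes of the *Psg* family were read in NPCs at means of 0.0901 (*Psg20*) to 1.55 CPM (*Psg16*), and *Psg16* and *Psg-ps1* (1.03 CPM) were thus above the lowest member, *Psg28* (0.907 CPM). *Psg20* and *Psg26*, which lie inside the cluster, had 0 counts in ESCs and 9, 1, 1 and 0 and 5, 8, 7 and 6 counts in the NPC libraries, too few to be tested. *Psg26* was near the members in sequence, with 96.4% of its coding columns shared with *Psg28*. The pseudogene *Psg-ps1*, between *Psg29* and the cluster, had 0 counts in ESCs and 3, 5, 87 and 30 in NPCs, with both J/B libraries above B/J. It passed the filter on low counts only through NPCs, where it was at least 37.6-fold higher on library totals, and this is a description. Between the crosses its log2 difference was 3.67 (adjusted p = 0.734 in edgeR). *Psg16*, known for its transcription in brain, had 178, 29, 160 and 39 counts in ESCs and 65, 19, 68 and 33 in NPCs. Its log2 change of -1.85 was not called (adjusted p = 0.0578). It was called with DESeq2 (adjusted p = 0.0219), with the replicate number as a block (-1.53, adjusted p = 0.0136), without ESC B/J replicate 2 (-2.24, adjusted p = 0.0276) and without ESC J/B replicate 2 (-2.22, adjusted p = 0.0253). Without ESC B/J replicate 1 or ESC J/B replicate 1 the change was -0.92 (adjusted p = 0.294) or -1.05 (adjusted p = 0.227). In each group replicate 1 was higher than replicate 2.

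The *Ceacam* genes are the nearest relatives of the *Psg* genes in the carcinoembryonic antigen family, and most encode cell adhesion molecules. Of 15 in the files 10 were tested, and 9 were called higher and 1, *Ceacam20*, lower in NPCs, beside 37.5% and 31.9% of all genes. *Ceacam20* had 11, 3, 50 and 4 counts in ESCs and 0, 0, 2 and 0 in NPCs, and passed the filter on low counts only through ESCs. Of the 9 higher genes 6 had 0 counts in ESCs and passed it only through NPCs. This count and the median change of 6.64, beside 0.17 for all genes, are therefore a description. The summed level was 1.17 to 9.54 CPM in ESCs and 183, 106, 74.6 and 81.7 CPM in NPCs, and 7 of the 15 had 0 counts in ESCs. The highest were placental members with 0 ESC counts. *Ceacam9* had 2237, 965, 592 and 408 counts in NPCs, at least 1266-fold more than the limit in ESCs on library totals. *Ceacam15* had 1325, 681, 405 and 495 counts (at least 875-fold) and *Ceacam3* had 1047, 517, 600 and 580 (at least 826-fold). *Ceacam9* and *Ceacam15* were higher in both B/J libraries, whereas *Ceacam3* overlapped.

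*Ceacam1*, a receptor on epithelial and immune cells, and *Ceacam2* were already read in ESCs. *Ceacam1* rose from 1.47 ± 1.54 to 11.0 ± 1.97 CPM (SD, n = 4 each, log2 2.55, adjusted p = 0.00762 in edgeR), and *Ceacam2* rose by 2.79 (adjusted p = 0.00515). Stretches of 100 bases occurred once in the genome for 63.8% of the positions of *Ceacam1* and 62.4% of those of *Ceacam2*, so the counts of both are uncertain. Between the crosses in NPCs 0 of the 10 tested *Ceacam* genes were called by edgeR, and 3 had an unadjusted p below 0.05, beside 6.40% of all genes. These were *Ceacam9* at -1.74 (adjusted p = 0.734), *Ceacam15* at -1.17 and *Ceacam14* at -2.39, all lower in J/B.

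Molecules that PSG proteins bind or act on were read in both stages. Of 13 genes, all tested, 9 were called higher and 1 lower in NPCs, beside 37.5% and 31.9% of all genes, and the median change was 1.51, beside 0.17. CD9, the receptor of PSG17 and PSG19, is encoded by *Cd9*, which went from 122 ± 23.8 CPM (ESCs) to 111 ± 42.4 CPM (NPCs; SD, n = 4 each) and was called lower with TMM factors (log2 -0.69, adjusted p = 0.00732). On library totals it was at -0.22 (adjusted p = 0.294). The change from TMM factors to totals raised the median of all genes by 0.48. In NPCs *Cd9* had 5004, 3392, 2298 and 2116 counts, and no library was without it.

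Among the proteoglycans, which carry the heparan sulphate that PSGs bind, the syndecan *Sdc3* rose from 3.68 ± 1.44 to 169 ± 19.7 CPM (log2 5.07, adjusted p = 1.66e-05 in edgeR). *Gpc1*, a glypican, rose from 40.4 ± 9.68 to 248 ± 29.5 CPM (log2 2.15), and *Sdc1* and *Sdc2* rose by 1.25 and 1.30. *Sdc4* was at -0.05 (adjusted p = 0.918) and at 0.42 on library totals. The integrin genes *Itgb1*, *Itgb3* and *Itga2b* rose by 1.51, 2.80 and 2.13, and *Itga5* was not called (0.84, adjusted p = 0.228). Without ESC J/B replicate 1 *Itga5* was called (1.74, adjusted p = 0.0159), as it was with the replicate block (1.22, adjusted p = 0.0273). Without ESC B/J replicate 2 or ESC J/B replicate 2 it was at 0.52 (adjusted p = 0.457) or 0.46 (adjusted p = 0.388). *Itga2b* was the lowest partner in NPCs, at 2.0 ± 0.596 CPM.

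*Lgals1*, which encodes the glycan-binding protein galectin-1, rose from 51.5 ± 4.28 to 454 ± 232 CPM (log2 2.61, adjusted p = 8.82e-05). *Tgfb2*, 1 of the latent cytokines that PSGs activate, rose from 0.761 ± 0.406 to 59.4 ± 19.9 CPM (log2 5.79, adjusted p = 2.91e-05). *Tgfb1* averaged 6.84 ± 4.13 CPM before and 17.2 ± 7.27 CPM after differentiation, and its change of 0.81 was not called (adjusted p = 0.150) with TMM factors but was called on library totals (1.27, adjusted p = 0.0444) and without ESC B/J replicate 2 (1.44, adjusted p = 0.0205). Without ESC B/J replicate 1 or ESC J/B replicate 1 it was at 0.48 (adjusted p = 0.304) or 0.58 (adjusted p = 0.316). On library totals 10 partners were higher and 0 lower.

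**Figure D5:**
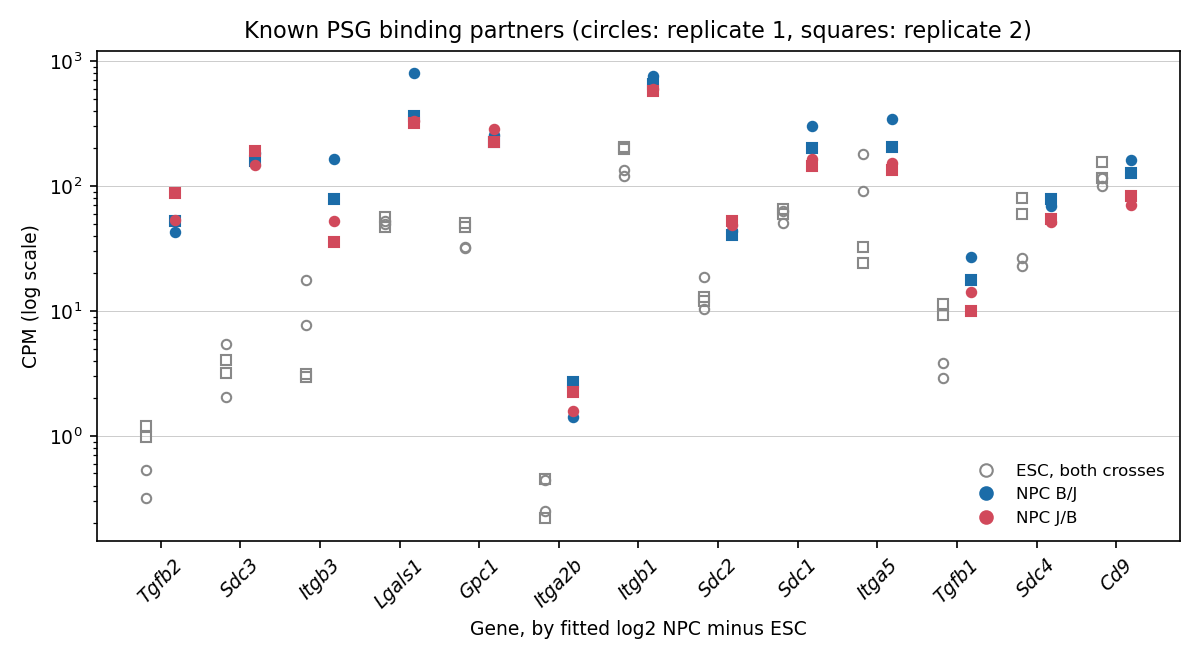
CPM, on a log axis, of 13 genes whose products bind PSG proteins or are activated by them, in the 4 ESC libraries (open grey) and the NPC libraries of B/J (blue) and J/B (red), with circles for replicate 1 and squares for replicate 2. *Tgfb2* and *Sdc3* at the left rose most, and *Cd9* at the right was read at like levels in both stages.

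Markers of the cells that make PSGs in the placenta were read in the same NPC libraries. Of 7 giant cell markers 6 were called higher in NPCs, beside 37.5% of all genes, and *Prl3d1*, *Prl2c2*, *Prl3b1* and *Ctsq* had 0 counts in ESCs. Of 7 tested spongiotrophoblast and glycogen cell markers 6 were called higher, beside the same 37.5%, and *Tpbpa* had 0 counts before differentiation and reached 272 ± 129 CPM. *Prl3a1* was the only 1 of these 15 genes with 0 counts in every library. These lists share the placental genes for which the family was picked, so their counts are a description. All 7 pluripotency markers were called lower in NPCs, beside 31.9% of all genes, from a sum of 4256 to 6539.9 CPM in ESCs to 91.1 to 312 CPM. Of 8 neural precursor markers 6 were called higher, beside 37.5% of all genes, and 1, *Sox2*, lower. The sum of the 8 overlapped between ESCs (408 to 741 CPM) and NPCs (190.2 to 823 CPM). *Sox2*, which is also expressed in ESCs, made up most of the ESC sum. Its mean fell from 521 ± 161 CPM before differentiation to 159 ± 80.8 CPM on day 12 (SD, n = 4 each). Every other gene of this list had a higher mean on day 12, the most abundant being *Nes* (28.9 CPM before, 180 CPM after). Markers of mesenchyme, at 916 to 2250 CPM in NPCs, were also called higher, 8 of 8, beside 37.5% of all genes. *Dcn*, *Lum* and *Postn* of the mesenchyme list and *Fabp7*, *Hes5* and *Emx2* of the neural list had at most 17 counts in any ESC library and passed the filter through NPCs. *Col1a2*, with 0, 4, 360 and 4 counts in ESCs, also passed it through NPCs, and its ESC level rests on J/B replicate 1. The numbers of genes called in these 2 lists are therefore also a description. The 9 erythroid markers had 0 counts in ESCs and summed to 0.117 to 1.58 CPM in NPCs. The adult globin genes *Hba-a1*, *Hba-a2*, *Hbb-bt* and *Hbb-bs* had 0 counts in every library, whereas the embryonic globin genes *Hba-x* (17, 12, 9 and 1 counts), *Hbb-y* (13, 13, 4 and 0) and *Hbb-bh1* (14, 13, 10 and 0) were read at low counts in NPCs. The part of these other cell types in the levels of the *Psg* genes was not tested.

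Between the first and the last member the files hold 11 other genes. Of these 9 had 0 counts in ESCs. The 5 with enough counts to be tested, *Psg-ps1*, *Ceacam5*, *Ceacam14*, *Ceacam11* and *Ceacam13*, had 0 to 2 ESC counts in all and passed the filter only through NPCs, so their higher NPC levels are a description. Their NPC means, 0.327 (*Ceacam14*) to 2.74 CPM (*Ceacam13*), were far below that of *Psg29* but near those of the low members. *Ceacam13* and *Ceacam5* (2.20 CPM) were above *Psg18* (2.10 CPM), *Psg25* (1.55 CPM) and *Psg28* (0.907 CPM), and *Psg-ps1* (1.03 CPM) was above *Psg28*. *Ceacam11* (0.777 CPM) and *Ceacam14* were below every member. *Igfl3* had no counts in any library and *Mill1* had 1.

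The genes whose profile over the 4 NPC libraries was nearest to that of the summed *Psg* genes were sought among 148 genes with at most 3 ESC counts and at least 5 CPM in NPCs. They were the placental prolactins *Prl7d1* (root mean square difference of centred log2 levels 0.0603) and *Prl2c5* (0.133), *Chrdl2* (0.0988), a BMP antagonist, *Pla2g4d* (0.123), a phospholipase, and *Cyp17a1* (0.204), a steroid hydroxylase. *Prl7d1* was read at 83.3, 59.5, 78.8 and 70.6 CPM, lowest in B/J replicate 2 like the *Psg* sum. *Psg29* made up 64.9% to 80.1% of the *Psg* counts in these libraries, so the profile of the sum is mostly its own. With a mean of at least 1 CPM in NPCs as the limit, *Chrm1* took the place of *Cyp17a1*. With 4 libraries such likeness is a description and points to no shared control. The prolactin family as a whole, 26 genes in the files, summed to 1151, 692, 819 and 597 CPM and was thus lowest in J/B replicate 2. None of its 21 tested genes was called between the crosses by edgeR, 5 had an unadjusted p below 0.05 (6.40% of all genes did), and their log2 differences ran from -2.74 to 4.02 with a median of 0.01.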

How the data were processed

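RNA-seq of 8 libraries was analysed. The authors prepared them with TruSeq Stranded mRNA or NEBNext Ultra II kits (the kit of each library is not given in the sources used), aligned reads with TopHat2 to mm39 masked at JF1 SNPs, and dropped improper pairs and alignments under a mapping quality of 20. The deposited values are raw counts per gene over both alleles, scaled here to CPM, and the submitters' processing notes name HTSeq, DESeq2 and edgeR. Reads without a gene (5.76% to 10.9% of a library) stayed out of all totals.

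The tests used edgeR 4.0.16 in R 4.3.3 (TMM factors, filterByExpr with a minimum count of 10, robust quasi-likelihood fit of 4 group means, Benjamini-Hochberg adjustment over the 16399 genes tested, threshold 0.05), tested on simulated data. Standard errors come from the quasi-F statistic. Alternatives were RLE factors, library totals, no filter, a mean of at least 1 CPM, DESeq2 1.42.0, limma-voom (limma 3.58.1), no robust estimation, a replicate block, only the 4 NPC libraries, and each library left out. For the crosses a replicate block within each stage was also run. Positions and sequences were read from GRCm39 and GENCODE vM39.

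The members, lists and tests were chosen with earlier results of these data known. Named were all members, genes of the lists, neighbours between the members, and the 5 genes nearest to their profile. The group of *Psg21*, *Psg23* and *Psg27* and the shared upstream run were noticed after values and sequences were seen.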

Additional observations from a re-analysis of the deposited data

How the results depend on the processing

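The number of members called between the crosses in NPCs and between replicates was 0 under every alternative run. The lowest adjusted p of *Psg21*, *Psg23* and *Psg27* between the crosses came with a replicate block within each stage in edgeR. There their log2 differences were -2.68 (adjusted p = 0.136), -2.48 (adjusted p = 0.132) and -1.42 (adjusted p = 0.209). The number of other *Psg* genes called between the stages, 1 (*Psg-ps1*, which passed the filter only through NPCs), was 2 without the low-count filter (with *Psg26*) and with DESeq2 or the replicate block (with *Psg16*), 0 with a mean of at least 1 CPM, which removed *Psg-ps1* from the test, and 1 to 2 when a library was left out (2, with *Psg16*, without ESC B/J replicate 2 or ESC J/B replicate 2). With the replicate block 11 binding partners were called in place of 10, with *Itga5* added, and it changed no other call of the members, *Ceacam* genes or binding partners. It was not taken as a pairing, since the labels do not say what the numbers mark: log differences of replicate 2 from 1 correlated at 0.518 between the ESC groups and 0.587 between the NPC groups, and at 0.0489 to 0.0915 across the stages.

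Small differences changed sign. Between the crosses *Psg19* was at 0.016 on library totals, and with a library left out it ran from -0.23 to 0.14, *Psg17* from -0.19 to 0.39, *Psg22* from -0.67 to 0.091 and *Psg28* from -0.63 to 0.14. Between replicates *Psg25* ran from -0.30 to 0.039, *Psg27* from -0.27 to 1.19 and *Psg28* from -0.64 to 0.75. *Psg21*, *Psg23* and *Psg27* stayed below 0 between the crosses, from -3.91 to -1.68, -3.78 to -1.42 and -2.05 to -0.85, with the lowest value of each without NPC J/B replicate 2. The causes were not tested. With 2 libraries a cross and 13 to 57 counts of *Psg21* and *Psg23* in J/B, depth and replicate number limit what can be said of these genes.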
